A study of Mus musculus with 5 samples.

Results

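The Wnt pathway was described here in 5 lines derived from NIH/3T3, mouse embryonic fibroblasts that grow without limit, through 41 named genes: ligands with the enzyme Porcn, receptors, secreted and surface inhibitors, core genes of the signalling chain, TCF and LEF factors, and feedback targets. Members were taken by gene symbol, and 36 of the 41 were analysed among 14454 listed genes; Wnt11, Frzb, Tcf7, Nkd1 and Nkd2 were not analysed here. Each of the 5 lines expressed human H2A, a core histone, as a fusion with EGFP from an integrated copy, beside its own mouse H2A genes. The fused histone was wild type in 1 line (wt) and carried the T120D substitution, an aspartate in place of a threonine in the C-terminal tail, in 4 lines, numbered 3, 6, 15 and 18 in the labels. Cells were grown in DMEM with 10% fetal calf serum and 10 µg/ml gentamicin, and polyadenylated RNA was sequenced. The labels name neither the promoter of the transgene nor whether a line is 1 clone or a separate culture.

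Wnt proteins are secreted after Porcn attaches a lipid to them. On the receiving cell they bind Frizzled receptors together with the co-receptors LRP5 and LRP6, the Dishevelled proteins are recruited, and the complex of Axin, APC and GSK3 that marks β-catenin for destruction is held back. β-catenin then enters the nucleus and, with TCF and LEF factors, turns on genes that include the feedback inhibitors Axin2, Nkd1 and Znrf3. Wnt5a acts mainly through another branch, in which ROR1, ROR2 and RYK serve as receptors and cell polarity and movement are controlled.

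Values are RPKM, which corrects reads for the length of the transcript and for the depth of the line, so that levels of different genes can be set side by side. Differences are those of log2(RPKM + 1), T120D mean minus wt value, and they understate changes of genes of low expression. Testing with limma was limited to genes that averaged 1 RPKM or more, and a call is a Benjamini-Hochberg adjusted p under 0.05 over all 10052 tested genes. There was 1 wt line, so each p sets its distance against the spread of the T120D lines, and no spread between wt lines enters it. Estimated depth was 2520000 to 2720000 reads per line, so that 1 RPKM stands for 5.04 to 5.44 reads where the transcript has 2000 bases. Of 12 fibroblast markers, 11 were tested, with 1 higher (Thy1) and 7 lower, and their summed level was 2713 to 3042 RPKM in the T120D lines and 3464 in wt. The sum hides larger shifts of single markers. Fn1 was at 120 to 154 RPKM in T120D and 376 in wt, and Pdgfra at 11.5 to 15.1 and 43.5. Col3a1 was at 12.7 to 16.9 and 45.2, while the abundant Vim went the other way, at 801 to 848 and 701. Markers of other cell types were low. Summed levels were 0.226 to 0.657 RPKM in T120D and 0.470 in wt for 3 epithelial markers, and 0.0926 to 0.471 and 0 for 3 endothelial markers, of which Pecam1 and Tek were listed at 0 in all lines. They were 2.88 to 6.55 and 3.17 for 4 macrophage markers (Aif1 at 0), 0.172 to 1.17 and 0.683 for 2 muscle markers, and 3.02 to 4.69 and 4.11 for 5 neural markers. The part of the shift in fibroblast markers in the results below was not tested.

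Of the 25 members tested, Ror1 and Apcdd1 were higher and Dkk3, Lrp5 and Tcf7l1 lower in the T120D lines. The share called was 20% of the members, against 13.1% of all tested genes. By direction it was 8% higher and 12% lower, against 7.65% and 5.45%. With 25 genes these shares rest on 2 and 3 genes, and the members were chosen with earlier results of these data known. The members' median difference was 0.17, with 13 positive and 12 negative differences, and that of all tested genes was -0.02. For 12 members wt was lower than every T120D line, and for 9 it was higher than every one, where 31.1% and 32.3% of all tested genes did so. It lay outside the T120D range for all but 4 of the 25, and for 63.4% of all tested genes. The other 11 analysed members were too low to be tested. Of the 25 that passed the filter, 4 had a mean under 1 RPKM in one group (Wnt9a, Fzd8, Ror1 and Dkk3) and passed it through the group where they were high, so that counts over the tested members do not stand for all members.

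**Figure D1:**
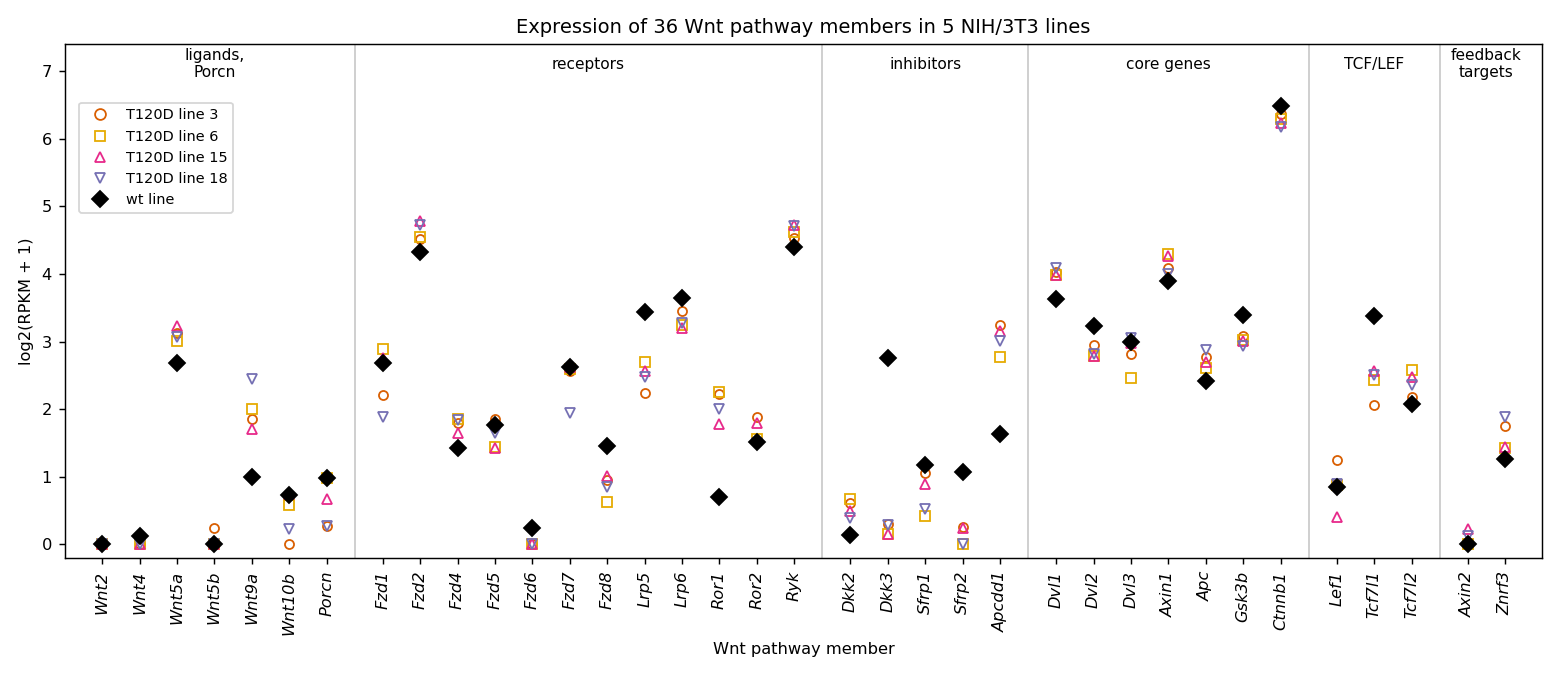
Expression of the 36 analysed Wnt members as log2(RPKM + 1), arranged by role; open symbols are the 4 T120D lines and the black diamond is the wt line. Ctnnb1 stands above all other members, several ligands and inhibitors lie near 0, and the black diamond lies clear of the open symbols for Dkk3, Lrp5, Tcf7l1, Ror1 and Apcdd1.

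Ligand expression was narrow, with Wnt5a and Wnt9a as the 2 ligands that could be tested. Wnt5a, the prototype ligand of the polarity branch, was at 7.75, 7.02, 8.36 and 7.42 RPKM in T120D lines 3, 6, 15 and 18 and at 5.41 in wt. The wt value lay below all T120D lines, but the difference of 0.43 (SE 0.17, 95% confidence interval 0.05 to 0.81) was not called (limma adjusted p = 0.133). Wnt9a, a ligand known from joint and skeletal development, was at 2.62, 3.00, 2.26 and 4.46 RPKM against 0.995. All T120D lines were above wt, with line 18 the highest. The Wnt9a values correspond to 22, 27, 20 and 39 reads against 9, a ratio of 3.11 (95% exact binomial interval 1.58 to 6.97, for counting error only). Its log2 difference of 1.01 (SE 0.30) fell short of a call (limma adjusted p = 0.057), and it passed with a pseudocount of 0.1 RPKM (limma adjusted p = 0.0408) or 0.5 RPKM (0.0492), after quantile normalization (0.0485) and without T120D line 15 (0.0475). It was not called under the other settings in which it was tested, with limma adjusted p from 0.0557 after median scaling to 0.155 with low genes kept in.

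The remaining ligands were at the limit of detection. Wnt2 was listed at 0 in all 5 lines. Wnt4 was listed at 0 in the T120D lines and at 0.0959 RPKM in wt, and Wnt5b at 0.186 RPKM in line 3 and at 0 elsewhere. Wnt10b, a ligand of the β-catenin branch that restrains fat cell formation, had 0, 3, 4 and 1 reads in lines 3, 6, 15 and 18 and 4 in wt. Porcn, the acyltransferase of all Wnt proteins, was at 0.202 to 0.984 RPKM in T120D and 0.977 in wt, which is 1 to 5 reads in every line. These levels do not allow a comparison. Over 10 listed Wnt genes, the summed level was 10.9 to 12.4 RPKM in T120D and 7.26 in wt. Wnt5a made up 59.9% to 73.3% of that sum in T120D and 74.5% in wt, and Wnt9a 19.9% to 36.01% and 13.7%.

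Among the receptors, Ror1 was higher and Lrp5 lower, while 9 of 11 tested receptors, including every tested Frizzled, were not called. The share called was 18.2%, against 13.1% of all tested genes, and 11 genes cannot set these shares apart. Ror1, a receptor tyrosine kinase-like protein that binds Wnt5a, was at 3.68, 3.75, 2.44 and 3.00 RPKM in T120D lines 3, 6, 15 and 18 and at 0.621 in wt. The lowest T120D line was well above the wt line, and the ratio of the means was 5.18. As wt was under 1 RPKM, Ror1 passed the filter through the T120D lines. T120D minus wt was 1.37 on the log2 scale (SE 0.26, 95% confidence interval 0.79 to 1.95, limma adjusted p = 0.010), a call that was lost when low genes were kept in (limma adjusted p = 0.0502). Its relatives were not called. Ror2 was at 2.69, 1.95, 2.46 and 1.82 RPKM against 1.85, with wt inside the T120D range (difference 0.17, 95% confidence interval -0.40 to 0.74). Ryk, an atypical receptor of similar function, was at 22.2, 23.5, 25.4 and 25.2 RPKM against 19.998 in wt, below all T120D lines (difference 0.25, limma adjusted p = 0.236).

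Lrp5, a co-receptor of the β-catenin branch, was at 3.75, 5.50, 4.94 and 4.55 RPKM against 9.86 in wt. Every T120D line was lower, and the wt level was 2.10 times the T120D mean of 4.68 ± 0.736 RPKM (SD, n = 4). T120D minus wt was -0.94 on the log2 scale (SE 0.21, 95% confidence interval -1.42 to -0.47, limma adjusted p = 0.0211); with low genes kept in, the adjusted p was 0.0738 and the call was lost. Its partner Lrp6 was at 9.96, 8.52, 8.22 and 8.71 RPKM against 11.5, also below wt in all 4 lines, with a difference of -0.34 that was not called (95% confidence interval -0.71 to 0.03, limma adjusted p = 0.204). Together the co-receptors summed to 13.2 to 14.01 RPKM in T120D and 21.3 in wt, and Lrp5 made up 27.3% to 39.2% of the sum in T120D and 46.2% in wt. In bulk RNA, fewer cells expressing a gene and less RNA per cell cannot be told apart.

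The Frizzled genes, which encode the Wnt receptors proper, were led by Fzd2 in every line. It was at 21.9, 22.4, 26.6 and 25.4 RPKM in T120D and 19.0 in wt, a difference of 0.32 (95% confidence interval -0.01 to 0.65, limma adjusted p = 0.182). Over 8 listed Frizzled genes the sum was 37.6 to 43.3 RPKM in T120D and 36.6 in wt, with 55.7% to 67.6% and 51.9% of it from Fzd2. Fzd1 varied most among the tested Frizzled genes, at 3.61, 6.41, 5.75 and 2.69 RPKM against 5.45, so that wt lay inside the T120D range. Fzd7 was at 4.93, 5.07 and 5.16 RPKM in lines 3, 6 and 15, close to the 5.19 of wt, and at 2.84 in line 18. Line 18 thus had the lowest level of both Fzd1 and Fzd7 and the highest of Wnt9a. Fzd4 was at 2.14 to 2.61 RPKM against 1.69, and Fzd5 at 1.69 to 2.63 against 2.41. Fzd8 was at 0.945, 0.552, 1.01 and 0.794 RPKM in lines 3, 6, 15 and 18 against 1.75, so that wt was the highest, at 2.12 times the T120D mean (log2 difference -0.60). None of these 3 was called (limma adjusted p = 0.346, 0.709 and 0.209). Fzd6 was listed at 0 in the T120D lines and at 0.180 RPKM in wt.

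**Figure D2:**
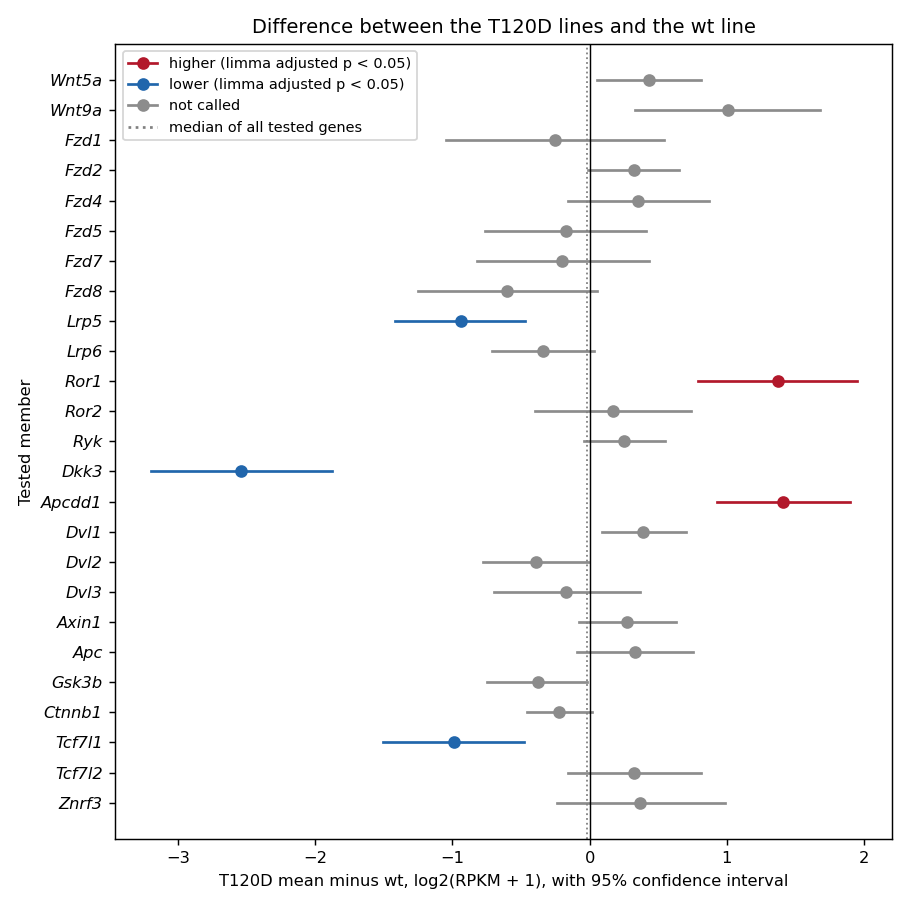
Difference of each of the 25 tested members on the log2(RPKM + 1) scale, T120D mean minus wt, with its 95% confidence interval from limma; red and blue mark calls. Dkk3 has the lowest difference (-2.54), Apcdd1 (1.41) and Ror1 (1.37) the highest. The intervals of Wnt9a, Wnt5a and Dvl1 lie above 0 and those of Dvl2 and Gsk3b below 0. None of these was called over all genes.

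The inhibitors changed in opposite directions, Dkk3 lower and Apcdd1 higher. Dkk3, a secreted dickkopf protein whose effect on Wnt signalling depends on the cell and which is often reduced in tumours and immortalised cells, was at 0.236, 0.110, 0.112 and 0.226 RPKM in T120D lines 3, 6, 15 and 18 and at 5.79 in wt. All T120D lines were near the detection limit and wt was not, so the spread used by the test was that of lines near 0. The values correspond to 2, 1, 1 and 2 reads against 53, a ratio of wt to T120D of 34.1 (95% exact binomial interval 14.7 to 97.2, for counting error only). T120D minus wt was -2.54 on the log2 scale (SE 0.29, limma adjusted p = 0.000971). Dkk3 passed the filter through the wt line alone, and it was also called with low genes kept in (limma adjusted p = 0.00811). A pseudocount of 0.1 RPKM gave a difference of -4.48, called with a larger adjusted p than in the main fit. The size of the difference thus depended on that setting.

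Apcdd1, a membrane glycoprotein that blocks Wnt signalling at the cell surface and is itself a target of β-catenin in several tissues, was at 8.48, 5.80, 7.92 and 7.05 RPKM against 2.10 in wt. Each T120D line was above wt, with line 6 the lowest, and the ratio of the means was 3.49. T120D minus wt was 1.41 on the log2 scale (SE 0.22, 95% confidence interval 0.93 to 1.90, limma adjusted p = 0.00396). The other inhibitors were too low to pass the filter of 1 RPKM. Sfrp2, a secreted Frizzled-related protein, had 1, 0, 1 and 0 reads in T120D lines 3, 6, 15 and 18 and 6 in wt, a ratio of wt to T120D of 11.6 with an exact binomial interval of 2.07 to 117. Its relative Sfrp1 had 12, 4, 10 and 5 reads against 15, a ratio of 1.87 with an interval of 0.938 to 3.57. Dkk2, a dickkopf protein that binds LRP5 and LRP6, had 5, 6, 4 and 3 reads against 1. Its ratio of T120D to wt was 4.66, with a wide interval of 0.74 to 194. These intervals cover counting error only. Sfrp1 and Sfrp2 were thus highest in wt and Dkk2 lowest, as values not tested in the main fit. With low genes kept in, Sfrp2 was called lower.

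**Figure D3:**
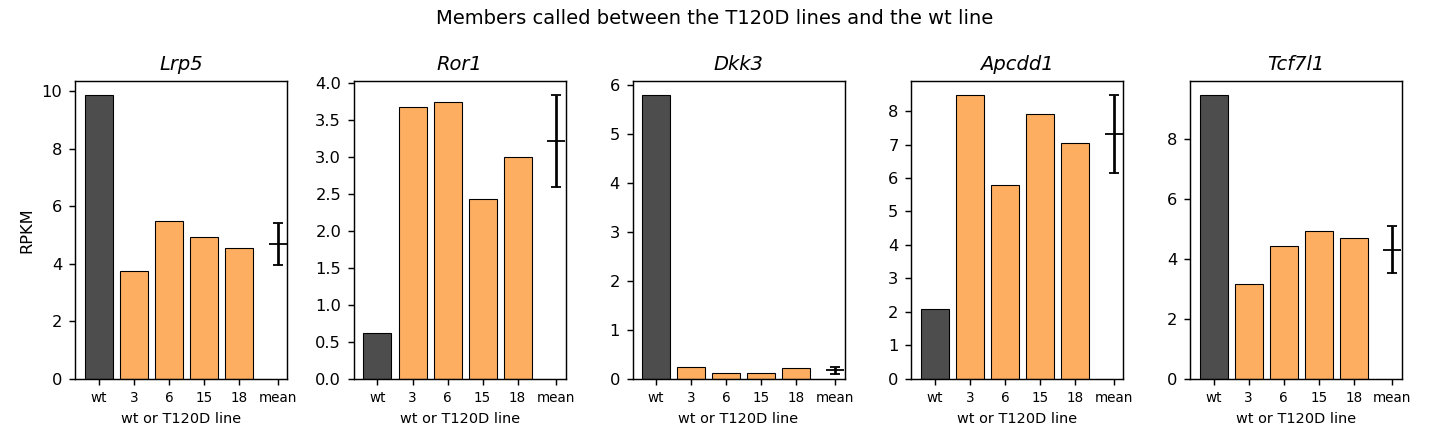
RPKM of the 5 called members in the wt line (dark bar) and the 4 T120D lines (light bars), with the T120D mean ± SD beside them; each panel has its own axis starting at 0. The wt bar exceeds all T120D bars for Lrp5, Dkk3 and Tcf7l1 and is the lowest for Ror1 and Apcdd1.

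None of the 7 core genes was called, where 13.1% of all tested genes were. With 7 genes, a count of 0 cannot be set apart from that share. The wt line lay outside the T120D range for all but 1 of the 7, and for 63.4% of all tested genes. Ctnnb1, which encodes β-catenin, was the most abundant member at 81.1, 77.0, 74.1 and 71.4 RPKM in T120D lines 3, 6, 15 and 18 and 88.4 in wt. The wt line was the highest, but by little (difference -0.22, 95% confidence interval -0.46 to 0.02, limma adjusted p = 0.203). β-catenin is controlled mainly through breakdown of the protein, which RNA does not show. Of the genes of its destruction complex, Axin1, the scaffold, was at 16.1, 18.7, 18.2 and 15.1 RPKM against 13.8, and Apc, which helps to hold β-catenin, was at 5.13 to 6.34 against 4.33. Gsk3b, the kinase that marks β-catenin, was at 6.63 to 7.43 against 9.50. Axin1 and Apc were thus above and Gsk3b below wt in all 4 lines, with limma adjusted p of 0.291, 0.290 and 0.157.

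The Dishevelled genes, which relay the signal from Frizzled, leaned in different directions. Dvl1 was at 15.4, 14.9, 14.8 and 16.0 RPKM against 11.4 in wt, with a narrow spread and a difference of 0.39 (95% confidence interval 0.09 to 0.70, limma adjusted p = 0.0916). Dvl2 was at 6.74, 5.91, 5.89 and 6.08 RPKM against 8.37, a difference of -0.39 (limma adjusted p = 0.169). Dvl3 was at 4.50 to 7.33 against 6.95. None of the 3 was called. Dvl1 made up 53.7% to 58.8% of the summed Dishevelled level in T120D and 42.6% in wt, and the sum itself was 25.3 to 29.4 RPKM and 26.7. Exons of Dvl2 overlap those of Acadvl on the other strand in the GRCm38 annotation, and Acadvl was at 5.38 to 7.43 RPKM in T120D and 7.71 in wt. The labels do not say whether reads were counted by strand, so the value of Dvl2 is uncertain.

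Of the TCF and LEF factors, which bring β-catenin to DNA, Tcf7l1 was lower in T120D. This factor, which acts mainly as a repressor, was at 3.16, 4.42, 4.91 and 4.68 RPKM in T120D lines 3, 6, 15 and 18 and at 9.45 in wt. Every T120D line was lower, line 3 the lowest, and the wt level was 2.20 times the T120D mean. T120D minus wt was -0.99 on the log2 scale (SE 0.23, 95% confidence interval -1.51 to -0.48, limma adjusted p = 0.0232), a call that was lost with low genes kept in (limma adjusted p = 0.0892). An antisense gene that overlaps its exons, Gm15401, was at 0 to 0.350 RPKM in T120D and 0.342 in wt, far below either level. Tcf7l2 was at 3.54, 4.97, 4.56 and 4.15 RPKM against 3.21, above wt in all lines and not called (0.32, limma adjusted p = 0.367). Lef1, which was not tested, was at 1.37, 0.837, 0.326 and 0.860 RPKM against 0.797, with wt inside the range. Tcf7l1 made up 70.2% of the summed level of these 3 genes in wt and 39.1% to 50.1% in T120D, and Tcf7l2 23.9% and 42.8% to 48.6%. These shares were not tested.

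**Figure D4:**
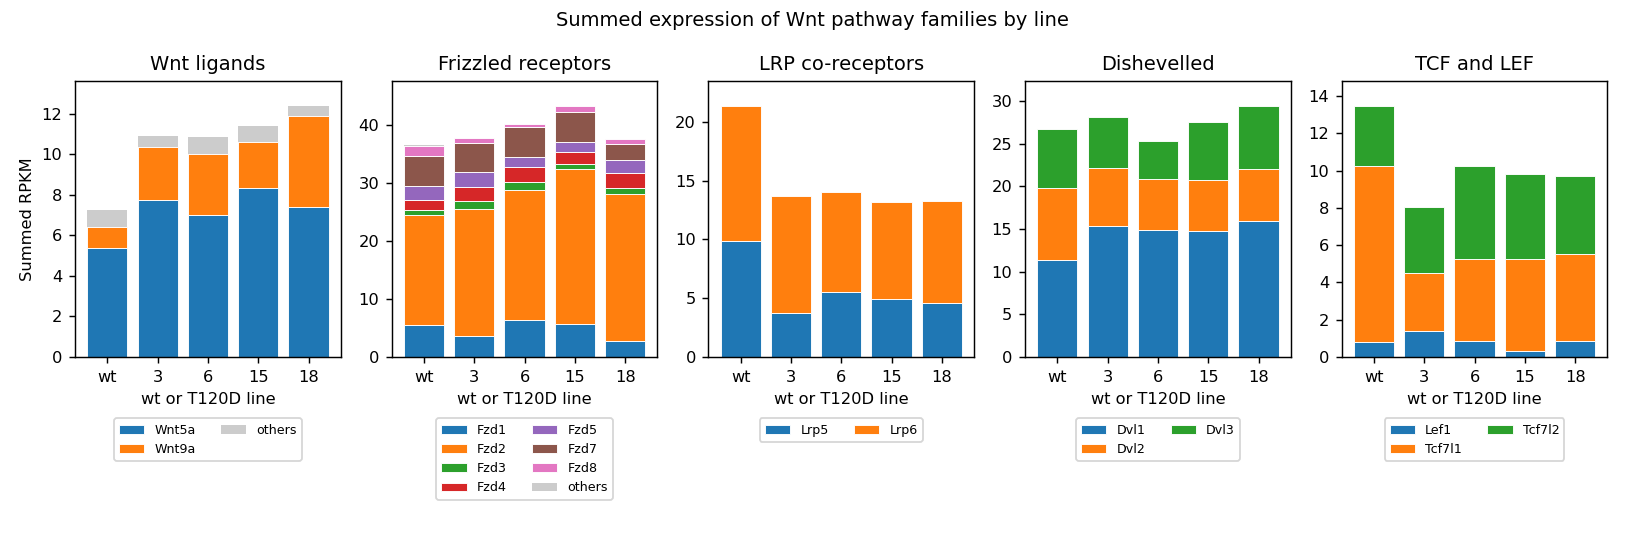
Summed RPKM of 5 gene families in the wt line and in T120D lines 3, 6, 15 and 18, divided by gene; grey is the sum of the other listed genes. The LRP sum is 21.3 RPKM in wt and at most 14.01 in T120D, Tcf7l1 is the largest part of the TCF and LEF sum in wt, and Fzd2 is the largest part of the Frizzled sum in all lines.

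The feedback targets gave little signal. Axin2, the most widely used readout of the β-catenin branch, was listed at 0 in lines 3 and 6 and in wt, at 0.177 RPKM in line 15 and at 0.0891 in line 18. At such low values no difference between the lines was detectable at this depth. Znrf3, a ubiquitin ligase that removes Frizzled from the surface, was at 2.38, 1.70, 1.73 and 2.71 RPKM against 1.40. All T120D lines were above wt, with a difference of 0.37 that was not called (95% confidence interval -0.24 to 0.99, limma adjusted p = 0.410).

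Upstream sequence of called members is shown for Ror1, which was higher, and Tcf7l1, which was lower, because both have an entry in the RefSeq promoter table of build GRCm38.p6; 28 of the 41 members had 1. The files were made on mm9, so these coordinates are not those of the files. Shown are the 250 bases before the annotated start, 5′ to 3′ on the gene's strand, with CG pairs in capitals. Ror1 lies at chr4:100095541-100095790 on the plus strand and Tcf7l1 at chr6:72789046-72789295 on the minus strand.
Ror1: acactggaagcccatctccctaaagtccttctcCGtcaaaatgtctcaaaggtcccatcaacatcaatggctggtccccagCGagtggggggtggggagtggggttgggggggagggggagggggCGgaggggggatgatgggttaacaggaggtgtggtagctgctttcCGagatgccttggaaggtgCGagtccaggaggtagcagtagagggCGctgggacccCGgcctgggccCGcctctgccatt
Tcf7l1: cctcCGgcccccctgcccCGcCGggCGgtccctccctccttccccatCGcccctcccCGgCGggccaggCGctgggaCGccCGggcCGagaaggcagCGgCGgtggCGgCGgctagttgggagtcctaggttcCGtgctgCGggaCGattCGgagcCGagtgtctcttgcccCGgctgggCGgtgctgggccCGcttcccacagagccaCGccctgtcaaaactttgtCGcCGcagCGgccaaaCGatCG
The Ror1 window holds 8 CG pairs and the Tcf7l1 window 29, and the median over 32851 windows of the table is 6. The window of Tcf7l1 is also richer in G and C, at 73.6% against 62.4%. The TCF core motif was searched as ATCAAAG and TTCAAAG on both strands. Neither window holds it; it was in 2 of 37 windows of the members, 1 each of Wnt5b and Wnt11, and in 7.48% of all windows. A match describes letters only, and methylation was not measured.

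Beyond the members, 83 of 110 other genes named in lists for the pathway were analysed and 68 tested, with 6 higher and 7 lower in T120D. The share called was 19.1%, with 8.82% higher and 10.3% lower, against 13.1%, 7.65% and 5.45% of all tested genes. These genes were listed with earlier results of these data known, so their shares do not stand as an excess over all genes. Their median difference was -0.05. Frat2, Bambi and Fzd3 among the 68 had a wt level under 1 RPKM and passed the filter through the T120D lines. At the step of ligand release, Wls, the carrier that brings Wnt proteins to the surface, was at 25.6, 26.5, 29.2 and 32.3 RPKM in T120D lines 3, 6, 15 and 18 and 47.9 in wt (difference -0.74, SE 0.14, limma adjusted p = 0.0119). All T120D lines were lower, and the call was lost with low genes kept in (limma adjusted p = 0.0622) and by limma without a trend (0.051). Trabd2b, which encodes a membrane protease that inactivates Wnt proteins, was at 3.10 to 5.52 RPKM against 10.3 (difference -1.05, limma adjusted p = 0.0295). Its call was lost with low genes kept in (limma adjusted p = 0.122), without the trend (0.0578) and without T120D line 3 (0.0582). Of 5 other receptors, 0 were called, with differences from -0.29 to 0.15 among Fzd3, Lgr4, Ptk7, Gpr124 and Reck. A count of 0 in 5 genes cannot be set apart from the 13.1% of all tested genes.

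Inside the cell, 1 of 18 other cytoplasmic core genes (5.56%) and 1 of 15 nuclear cofactors (6.67%) were called, against 13.1% of all tested genes. Lists this small do not set these shares apart from that of all genes. Frat2, which encodes a protein that binds GSK3 and keeps it from Axin, had 13, 9, 13 and 12 reads in T120D lines 3, 6, 15 and 18 and 3 in wt, at 1.54 to 2.38 RPKM against 0.510. The ratio was 4.05 with an exact binomial interval of 1.31 to 20.4 for counting error, and the log2 difference 1.02 (limma adjusted p = 0.0369). Without line 3, 15 or 18 in turn, the limma adjusted p of Frat2 was 0.081, 0.0687 and 0.0704, and with low genes kept in it was 0.0675, so that the call was lost each time. Tle2, a Groucho corepressor of TCF factors, was at 1.31, 0.814, 1.38 and 1.39 RPKM against 3.50 (difference -1.03, limma adjusted p = 0.0383). Its call also ended without line 3, 15 or 18 (limma adjusted p of 0.067, 0.053 and 0.0566) with low genes kept in (0.0681), with a pseudocount of 0.1 RPKM (0.0693) or 0.5 RPKM (0.05), and after quantile normalization (0.0565). Tle1, Tle3 and Tle4 were not called.

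In the planar polarity and calcium branch, 3 of 11 tested genes (27.3%) were lower and 0 higher, against 5.45% and 7.65% of all tested genes. The share rests on 3 genes of a list chosen with earlier results of these data known. It therefore does not stand as an excess over all genes. Nfatc4, a factor activated by calcium and calcineurin, was at 4.13, 3.95, 3.94 and 3.87 RPKM in T120D lines 3, 6, 15 and 18 and 8.77 in wt. The T120D lines were nearly equal, at less than the wt level (difference -0.97, SE 0.18, limma adjusted p = 0.00944). Daam2, a formin partner of Dishevelled, was at 1.05, 1.53, 1.24 and 1.38 RPKM against 4.25 (difference -1.19, limma adjusted p = 0.016). Camk2d, a calcium-dependent kinase, was at 14.1, 11.6, 14.02 and 14.1 RPKM against 21.5 (difference -0.64, limma adjusted p = 0.0277), and its call was lost with low genes kept in (limma adjusted p = 0.0714) and without the trend (0.0657). Over the 11 tested genes of this branch, 2 differences were positive and 8 negative, called genes included. Their median was -0.3, against -0.02 for all tested genes. The 2 positive ones were Prickle1 (0.51) and Nlk (0.49), neither called. Vangl1, also not called, had a difference of -0.51.

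Of 15 tested targets that Wnt shares with other pathways, 5 (33.3%) were higher and 1 (6.67%) lower, against 7.65% and 5.45% of all tested genes. This list too was chosen with earlier results of these data known, so the share of higher genes cannot be read as an excess. The higher genes were Ccnd1, Cd44, Fosl1, Plaur and Ptgs2, which also respond to growth factor signalling. Plaur, the urokinase receptor gene, was at 39.7, 28.3, 31.5 and 29.9 RPKM against 6.83 (difference 2.08, limma adjusted p = 0.00023). Fosl1, an AP-1 factor gene, was at 42.9, 57.5, 44.2 and 32.8 RPKM against 16.5 (difference 1.34, limma adjusted p = 0.0076), and its call was lost with low genes kept in (0.0834). Its exons overlap those of Ccdc85b on the other strand, which was at 18.2 to 20.9 RPKM in T120D and 16.6 in wt, so the value of Fosl1 is uncertain. The differences of Ccnd1, Cd44 and Ptgs2 were 1.36, 1.17 and 3.19. Wisp2, a matricellular gene induced by Wnt in some cells, was lower, at 21.6, 27.7, 30.3 and 24.4 RPKM against 66.1 (difference -1.33, SE 0.17, limma adjusted p = 0.00169). Its relative Wisp1 was at 8.45 to 9.15 RPKM against 7.89 and was not called. Myc was at 44.8 to 50.4 RPKM against 37.2 (difference 0.33, limma adjusted p = 0.0916), and Id2 at 15.8 to 25.8 against 30.3 (difference -0.64, limma adjusted p = 0.102).

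**Figure D5:**
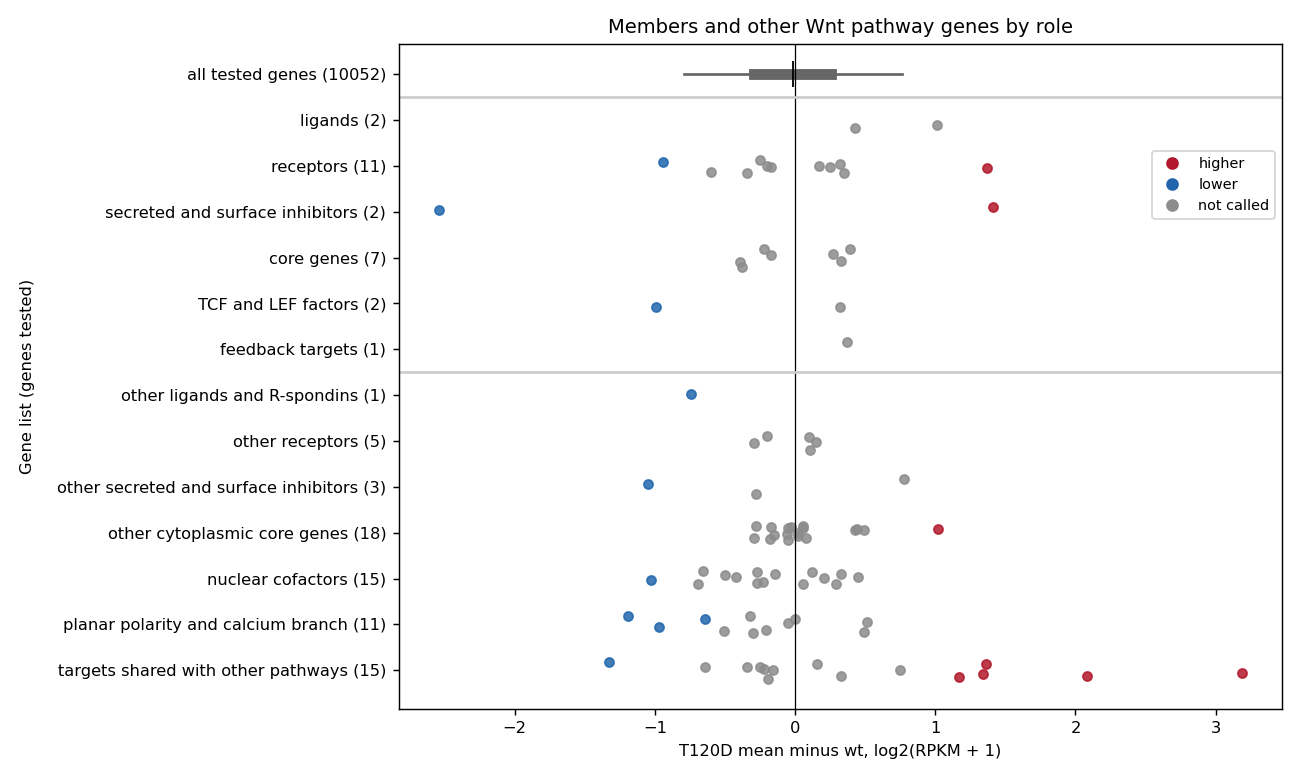
Differences on the log2(RPKM + 1) scale, T120D mean minus wt, of members (middle rows) and of other pathway genes (lower rows) by role, with calls in red and blue; vertical position within a row is random. The top bar spans the 5th to 95th percentile of all tested genes, -0.80 to 0.77, and its thick part the 25th to 75th. The planar polarity and calcium row has 3 calls, all on the lower side.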

How the data were processed

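RNA of 5 lines was sequenced from stranded TruSeq libraries, per the labels' protocols. The authors deposited 1 table of RPKM values per line. Partek and build mm9 were used, per the submitters' processing notes; the aligner, the annotation and any use of strand: not given in the sources used here. RPKM tables hold no counts, so no count model was used. Depth was estimated from the steps of low RPKM values of 1348 single-transcript genes (GENCODE M21 lengths), of which 47.4% to 54.5% of values under 20 reads lay no more than 0.05 from whole reads (10% by chance). Reads of single low genes are given where all lines came within 0.1 reads, or 0.5% of the reads, of whole numbers at an annotated length. They are approximate.

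Genes averaging 1 RPKM or more were analysed as log2(RPKM + 1) with limma 3.58.1 (R 4.3.3; empirical Bayes, intensity trend, two-sided), T120D minus wt, with 3 residual and 5.99 prior degrees of freedom. Variation in wt was assumed equal to that of the T120D lines. With 1 line against 4, the smallest one-sided p of an exact permutation test is 0.2. The labels do not say that the lines are separate cultures, so p-values measure only the spread between these samples, which may be technical. The code was tested on simulated data in which genes above 10 RPKM were changed by known folds. It called 32.8% of the 1.5-fold, 65.7% of the 2-fold and 89.4% of the 4-fold changes. A gene that was not called may therefore still differ, and lower genes were not simulated as changed. The simulation changed 67, 67 and 66 of 10052 genes by these folds, a smaller part than was called in the data. Its wt value was drawn with the spread of the T120D lines. The rates may thus not hold for the data. Alternatives changed the pseudocount, the filter, the trend and the scaling, or left out 1 T120D line. Members and lists were chosen with earlier results of these data known. Members that were called, differed 2-fold on the log2(RPKM + 1) scale or reached 10 RPKM are given in every line, and every called gene of the other pathway lists is named. Other genes named beside them were chosen after their values were seen.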

Additional observations from a re-analysis of the deposited data

Results flagged for a closer look

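Of 38 genes checked (tested members and called pathway genes), 3 had 1 T120D line far from the other 3, where chance gives about 1 in 20. Fzd7 was at 2.84 RPKM in line 18 and at 4.93 to 5.16 in the other T120D lines. Tle2 was at 0.814 RPKM in line 6, below 1.31 to 1.39. Camk2d was at 11.6 RPKM in line 6, below 14.02 to 14.12. The gap to the nearest line was 0.904, 0.85 and 0.958 of the range of the 4 lines, above the 95% critical value of Dixon's test.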

How the results depend on the processing

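No result for a tested member or called pathway gene changed direction under the 11 alternatives. Of the members' values under them, 257 kept their side of the threshold, 4 (all Wnt9a) gained a call and 3 lost it. Without the filter on low values, 1 member was higher (Apcdd1) and 3 were lower, of which Dkk3 alone remained from the 3 lower members, beside Fzd6 and Sfrp2, which are too low for the main filter; 3 other pathway genes were lower, and 653 of the 1317 calls remained, with 45.8% of calls higher against 58.4%. At a mean of at least 5 RPKM, 1 member was higher and 4 other pathway genes were lower; Dkk3 and Ror1 were not tested there. By limma without a trend, 816 genes were called and 4 other pathway genes were lower. Leaving out 1 T120D line gave 955 to 1382 calls over all genes, 2 to 3 higher and 3 to 3 lower members, and 5 to 6 higher and 5 to 8 lower pathway genes. Members under 1 RPKM rest on few reads at this depth. Fzd6 was at 0 in every T120D line and at 0.180 RPKM in wt, so its call without the filter had no spread of its own between lines. No paired analysis was possible because the wt group has 1 line and shares no number with the T120D lines.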
